A study of Mus musculus with 40 samples.

Results

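The genes described here are 10 genes of extracellular matrix breakdown and its control in the mouse lung: the tissue inhibitors of metalloproteinases *Timp1*, *Timp2* and *Timp3*, and the matrix metalloproteinases *Mmp2*, *Mmp3*, *Mmp9*, *Mmp10*, *Mmp12*, *Mmp13* and *Mmp14*. They were picked by gene symbol from the 37310 genes of the deposited table and were chosen by their measured values, with their levels by dysplasia grade, sample type and strain known. Their levels and fitted differences in the 25 samples used for that choice are therefore given as a description with no test. Tests are kept for 48 other genes of matrix proteolysis and for *Timp1* in samples that the choice did not use. The list of those 48 genes was also drawn up with earlier results of these data known, and they were tested in the same 25 samples. Levels are log2 CPM, the log2 of a gene's counts scaled to a common library size by TMM, with a prior count of 2 added. A gene without reads has a value of -2.22 on this scale.

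Matrix metalloproteinases are zinc enzymes that are made as inactive precursors and, once their propeptide is removed, cut collagens, elastin, laminins, proteoglycans and many signalling proteins. TIMPs bind the active site of these enzymes and block them. In the airway and lung, both are made by fibroblasts, epithelium, macrophages and neutrophils, and matrix turnover accompanies injury, repair and invasion of tumors through the basement membrane.

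The samples came from mice in a chemical model of lung squamous cell carcinoma, in which N-nitrosotris-(2-chloroethyl)urea (NTCU) is painted on the skin. RNA was taken from laser-capture microdissected (LCM) tissue or from fresh frozen whole lung sections of 2 inbred strains, SWR/J and A/J, and was sequenced for 40 samples, of which 25 passed quality control. The 7 normal samples (4 SWR/J, 3 A/J) had a total NTCU dose of 0 and their mice had received the acetone vehicle. The 5 samples with mild dysplasia were all from SWR/J mice given 15 µmol. High-grade samples (n = 13) comprised 9 with moderate to severe dysplasia (6 SWR/J mice at 25 or 30 µmol and 3 A/J at 14 µmol), 2 with severe dysplasia (SWR/J, 50 µmol) and 2 with CIS/SCC tumor, 1 carcinoma in situ and 1 SCC (A/J, 20 µmol). For whole lung sections the grade is the worst one seen, and an LCM sample holds the cells cut out under the microscope. Dose rose with grade within each strain, so dose and grade cannot be told apart, and mild dysplasia is represented by 1 strain. The study's methods describe female mice that entered as young adults. The age at sampling and which samples share an animal are not given in the sources used here, so p-values measure the spread between these samples.

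Expected counts summed to 2667387 to 16534727 per sample, and the median transcript integrity number (TIN, a measure of RNA degradation) ran from 21.7 to 75.1. Severe dysplasia sample 42 (LCM) had the lowest TIN and a summed level of neutrophil markers of 15070 CPM against 5.75 to 2495 CPM in the other 24 samples. Normal sample 72 had the lowest summed level of airway epithelial markers (636 CPM, against 1691 to 185800 CPM elsewhere) and the highest of macrophage markers (864 CPM). Sample 7c is graded mild but described as normal, and SM1 is graded normal but described as mild, and both were kept under their grade. Markers of airway epithelium were detected in all 25 samples. In these bulk samples, fewer cells of a type and less RNA per cell cannot be told apart.

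On NCBIM37 (mm9), the build of the files, *Timp1* is on the X chromosome at chrX:20447292-20451861 within *Syn1*, a gene of the opposite strand, with 0 exon bases in common. *Timp2* is at chr11:118162383-118217054 and *Timp3* at chr10:85763117-85812251. *Timp3* lies within *Syn3* on the opposite strand and shares 1733 exon bases with it. *Mmp2* is at chr8:95351227-95377316, *Mmp9* at chr2:164766280-164781350 and *Mmp14* at chr14:55050441-55060095. *Mmp13*, *Mmp12*, *Mmp3* and *Mmp10* are read from the plus strand of chromosome 9, in a run of 10 metalloproteinase genes between 7272514 and 7699585. The library kit did not mark strand, so reads of *Timp3* and *Syn3* over common exon bases, and of *Mmp12* and *Mmp1b* (157 exon bases in common), cannot be told apart. *Mmp3* and *Mmp10* have 140 stretches of 50 bases, the read length, in common, which is 8.01% of those of *Mmp3* and 8.38% of those of *Mmp10*, and RSEM divides such reads between the genes.

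The 250 bases before the transcription start are shown for the chromosome 9 genes and for *Timp1*, because *Timp1* and *Mmp3* had the most similar levels over samples of all pairs of the genes and *Mmp3*, *Mmp10*, *Mmp12* and *Mmp13* are neighbors whose levels differed. The sequences are from the RefSeq promoter table (GRCm38.p6), and each was found once, letter for letter, in NCBIM37, whose coordinates are given. Capitals mark the AP-1 motif TGANTCA, the same on both strands, to which Fos and Jun dimers bind.
Mmp3: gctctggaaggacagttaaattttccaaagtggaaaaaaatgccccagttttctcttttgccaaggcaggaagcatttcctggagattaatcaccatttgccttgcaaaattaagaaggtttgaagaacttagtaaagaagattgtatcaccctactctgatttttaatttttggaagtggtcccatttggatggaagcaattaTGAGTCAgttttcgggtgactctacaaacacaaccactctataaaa
Mmp10: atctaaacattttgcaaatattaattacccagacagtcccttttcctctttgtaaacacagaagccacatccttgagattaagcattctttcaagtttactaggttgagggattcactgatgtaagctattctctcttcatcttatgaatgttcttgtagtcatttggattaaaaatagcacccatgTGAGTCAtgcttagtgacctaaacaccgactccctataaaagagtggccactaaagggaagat
Mmp13: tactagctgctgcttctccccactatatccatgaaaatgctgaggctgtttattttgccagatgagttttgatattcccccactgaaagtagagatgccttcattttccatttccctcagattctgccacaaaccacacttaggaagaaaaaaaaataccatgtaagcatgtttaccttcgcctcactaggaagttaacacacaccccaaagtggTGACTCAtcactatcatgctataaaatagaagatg
Mmp12: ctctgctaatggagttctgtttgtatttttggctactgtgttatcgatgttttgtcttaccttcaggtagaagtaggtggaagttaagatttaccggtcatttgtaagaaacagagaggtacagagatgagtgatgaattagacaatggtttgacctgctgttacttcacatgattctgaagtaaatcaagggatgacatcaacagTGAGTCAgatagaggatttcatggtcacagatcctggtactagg
Timp1: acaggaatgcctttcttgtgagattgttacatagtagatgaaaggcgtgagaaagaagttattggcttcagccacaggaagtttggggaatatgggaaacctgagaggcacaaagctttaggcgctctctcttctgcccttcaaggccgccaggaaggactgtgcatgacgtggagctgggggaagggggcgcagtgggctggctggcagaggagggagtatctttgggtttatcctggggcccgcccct
The *Mmp3* (chr9:7445572-7445821), *Mmp10* (chr9:7502092-7502341) and *Mmp13* (chr9:7272264-7272513) stretches lie outside annotated genes, the *Mmp12* stretch (chr9:7347124-7347373) belongs to the downstream of 2 RefSeq starts and lies in an intron of the annotated gene, and the *Timp1* stretch (chrX:20447042-20447291) lies in a *Syn1* intron. The motif starts 46 bases before the transcription start in *Mmp3*, 63 in *Mmp10*, 35 in *Mmp13* and 44 in *Mmp12*. The letters were in none of the 300-base windows (250 bases before and 50 after the start) of *Timp1*, *Timp2*, *Timp3* and *Mmp14*, nor in that of the upstream *Mmp12* start. Near matches were not counted, among them tgagtaa after the start in the *Timp1* window, beyond the stretch shown. Over all 32851 promoters of this length in the table, 7.81% held the motif. The STAT motif TTCNNNGAA was in none of the windows of the 8 genes searched and in 8.30% of all promoters. *Mmp2* and *Mmp9* were not searched.

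*Timp1*, a secreted inhibitor that is induced by growth factors and inflammatory cytokines, had the widest range of the TIMPs. In A/J mice the normal samples were at 2.50, 3.85 and 2.05 log2 CPM, the samples with moderate to severe dysplasia at 3.86, 4.91 and 5.14, the SCC at 7.33 and the carcinoma in situ at 7.45. The A/J grades did not overlap, though the highest normal sample (SM1, 3.85) was next to the lowest dysplasia sample (47, 3.86). In SWR/J mice the 4 normal samples were at 3.43, 2.28, 1.49 and 1.32, and the 5 with mild dysplasia at 5.44, 3.33, 3.72, 2.92 and 3.75. The 6 SWR/J samples with moderate to severe dysplasia ran from 2.24 to 6.26 with a median of 4.49, so these grades overlapped. By dose, the latter were at 4.33 and 4.66 after 25 µmol and at 2.24, 2.67, 5.57 and 6.26 after 30 µmol. The 2 SWR/J samples with severe dysplasia lay far apart, at 7.68 (42, LCM) and 3.38 (79, whole lung). Over both strains, the mean was 2.42 ± 0.94 (SD, n = 7) in normal samples, 3.83 ± 0.96 (n = 5) in mild dysplasia and 5.04 ± 1.78 (n = 13) in high-grade samples. Of the high-grade samples, 10 of 13 were above the highest normal sample, and of the mild samples 1 of 5.

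*Timp2*, which is expressed constitutively in most tissues and also takes part in proMMP2 activation on the cell surface, varied least of the 9 genes that passed the filter on low values. It ran from 6.61 to 7.91 log2 CPM in normal samples (median 7.54), was 8.14, 7.29, 7.72, 8.22 and 7.95 in mild dysplasia, and ran from 6.55 to 8.24 (median 7.60) in high-grade samples. The 3 classes overlapped, with means of 7.31 ± 0.57, 7.87 ± 0.38 and 7.57 ± 0.51.

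*Timp3*, the inhibitor that stays bound to the matrix and also blocks several ADAM proteases, was tightly grouped in mild dysplasia. Normal samples ran from 6.29 to 9.08 (median 8.03), the mild samples were at 8.67, 9.02, 8.64, 8.97 and 8.93, and high-grade samples ran from 6.53 to 10.16 (median 8.44). Every mild sample was above the normal mean of 7.52, and none was above the highest normal sample (46, A/J). Among high-grade samples it ran from 8.65 to 10.16 in the 5 A/J samples and from 6.53 to 8.89 in the 8 SWR/J samples, which overlapped at 1 sample of SWR/J (76). The 2 CIS/SCC samples were the highest of the 25, at 9.48 and 10.16, and the 2 with severe dysplasia were at 6.53 and 6.75, within the range of the SWR/J normal samples (6.29 to 8.04).

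**Figure D1:**
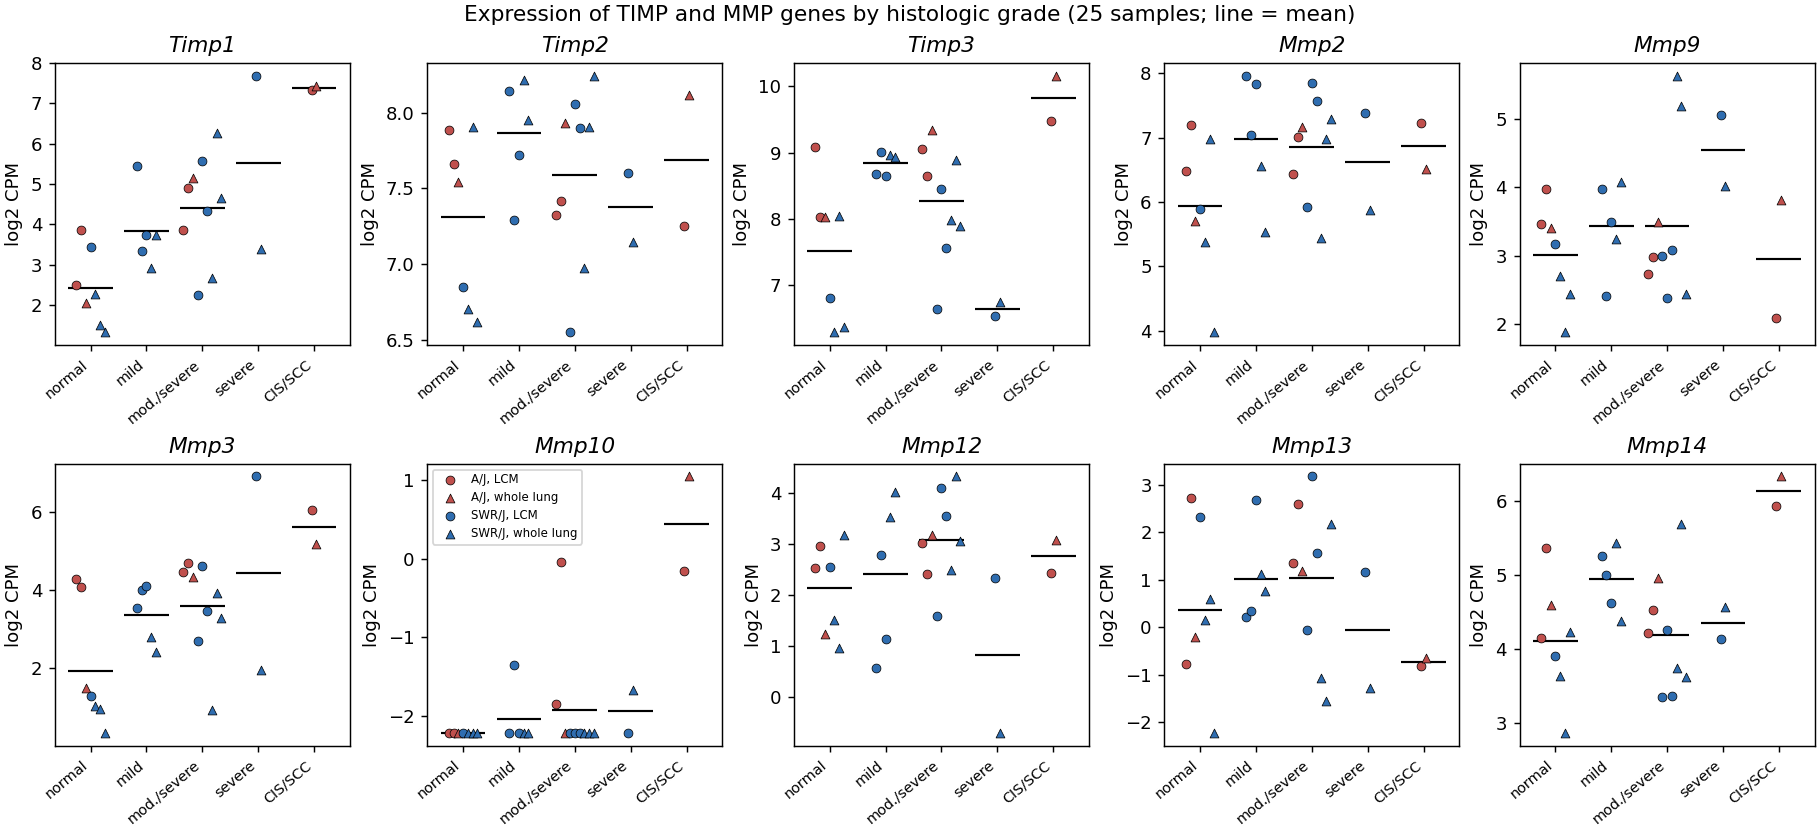
Log2 CPM (vertical axis) of the 10 genes by histologic grade (horizontal axis) in 25 samples. Points are samples, colored by strain and shaped by sample type, and lines are grade means. *Timp1* runs from 1.32 to 7.68 and is above 7 in the 2 CIS/SCC samples and severe dysplasia sample 42, and *Mmp10* is at -2.22 (no reads) in 19 samples.

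Stromelysin-1, encoded by *Mmp3*, cuts proteoglycans, laminin and fibronectin and activates other metalloproteinases. The normal samples formed a low and a high set: the SWR/J samples and A/J whole lung sample 81 were at 1.30, 1.04, 0.96, 0.36 and 1.503, while A/J LCM samples 46 and SM1 were at 4.28 and 4.09. The mild samples were at 3.54, 4.002, 4.11, 2.81 and 2.41. Among high-grade samples the A/J ones were at 4.46, 4.70, 4.33, 6.03 and 5.17, and the 8 SWR/J ones ran from 0.94 to 6.90 with a median of 3.37. All 5 A/J high-grade samples were above the 3 A/J normal samples, and the lowest of them (82, 4.33) exceeded the highest normal (46, 4.28) by little. In SWR/J mice all 5 mild samples were above the 4 normal samples. The highest sample was severe dysplasia sample 42 at 6.90. The other severe sample, 79, was at 1.956.

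*Mmp10*, the neighboring stromelysin-2 gene, was near absent. Its expected count was 0 in 19 of 25 samples, among them all 7 normal ones, in which 3 counts would be 0.201 to 0.87 CPM. The carcinoma in situ held 17.46 counts (2.02 CPM), the SCC 9.55 (0.578 CPM) and A/J moderate to severe sample 48 held 6.09 (0.582 CPM). Samples 7, 47 and 79 held about 1 count each. The counts over 3 were thus in 3 A/J samples, and part of them can be reads that *Mmp3* and *Mmp10* have in common.

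The gelatinases cut denatured collagen and basement membrane collagen IV. *Mmp2*, the gelatinase of fibroblasts, ran from 3.98 (72) to 7.19 in normal samples with a median of 5.89. The mild samples were at 7.96, 7.04, 7.83, 6.56 and 5.54, and high-grade samples ran from 5.43 to 7.85 with a median of 7.02. Among the mild samples the 3 LCM samples (7.04 to 7.96) were above the 2 whole lung samples (5.54 and 6.56). Classes overlapped, with 5 of 13 high-grade and 2 of 5 mild samples above the highest normal sample.

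*Mmp9*, the gelatinase stored in neutrophil granules and also made by macrophages and epithelium, ran from 1.88 to 3.98 in normal samples, was 3.98, 2.41, 3.49, 3.24 and 4.07 in mild dysplasia, and ran from 2.09 to 5.63 in high-grade samples. The 3 highest samples were SWR/J whole lung samples 75 (5.63) and 76 (5.18) and LCM sample 42 (5.06). In these the summed neutrophil markers were 1192, 1096 and 15070 CPM. Moderate to severe samples 45 and 78, with 2495 and 1078 CPM of neutrophil markers, had *Mmp9* at 3.08 and 2.43, and the SCC, with 66.1 CPM, had the lowest high-grade value (2.09). In 45 and 78 the sum was mostly *S100a8* and *S100a9* (1125 and 1358 CPM, 371 and 699 CPM), as in 42 (8078 and 6925 CPM). *Cxcr2* and *Csf3r* were at 2.1 and 10.49 CPM in 45 and at 1.15 and 4.9 CPM in 78. In 75, 76 and 42 they were at 54.65 and 201.47, 76.04 and 210.59, and 14.91 and 49.15 CPM. Of the 5 neutrophil markers, 4 had counts in every sample and *Ly6g* was at 0 in 14 samples, among them every mild one. By class their sum ran from 5.75 to 515 CPM in normal, 38.4 to 339 in mild and 52.4 to 15100 in high-grade samples. Its part in the levels of *Mmp9* was not tested.

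*Mmp14* encodes MT1-MMP, the membrane-bound enzyme that activates proMMP2. It ran from 2.87 to 5.36 in normal samples (median 4.15), was 5.26, 5.0, 4.62, 5.42 and 4.38 in mild dysplasia and ran from 3.35 to 6.33 in high-grade samples (median 4.26). The highest values were those of the SCC (5.92) and the carcinoma in situ (6.33). All 5 mild samples were above the normal mean of 4.10, though 4 of them stayed within the normal range.

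Macrophage elastase, *Mmp12*, ran from 0.96 to 3.18 in normal samples, was 0.57, 2.78, 1.13, 3.52 and 4.02 in mild dysplasia and ran from -0.71 to 4.32 in high-grade samples. The mild LCM samples (0.57, 2.78 and 1.13) lay below the mild whole lung samples (3.52 and 4.02). The normal sample with the most macrophage marker signal, 72, had the highest normal value (3.18), and severe dysplasia sample 79 had the lowest of all samples (-0.71) at 479 CPM of macrophage markers. All 5 macrophage markers had counts in every sample, and their sum ran from 90.7 to 864 CPM in normal, 109 to 500 in mild and 119 to 482 in high-grade samples. Its part in the levels of *Mmp12* was not tested.

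Collagenase-3, *Mmp13*, is made by hypertrophic chondrocytes and by stromal cells of wounds and tumors. Its values ran from -2.22 to 2.72 in normal samples, were 0.22, 0.34, 2.68, 1.12 and 0.77 in mild dysplasia and ran from -1.55 to 3.17 in high-grade samples. The 4 highest samples, all LCM, were 41 (3.17), SM1 (2.72), 7c (2.68) and 48 (2.60), and they had summed cartilage markers of 244, 437, 523 and 50.8 CPM. The SCC and the carcinoma in situ had *Mmp13* at -0.81 and -0.65 with cartilage markers at 1.42 and 1.48 CPM. Other samples went the other way: mild LCM sample 5 had *Mmp13* at 0.22 with cartilage markers at 324 CPM. Severe dysplasia sample 42 had *Mmp13* at 1.16 with 185 CPM. Cartilage markers ran from 1.42 to 523 CPM in LCM samples and from 0.557 to 179 CPM in whole lung samples, and of the 4 markers *Comp* had counts in every sample while *Col2a1*, *Acan* and *Matn1* were at 0 in 1, 2 and 4 samples. Their part in the levels of *Mmp13* was not tested.

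**Figure D2:**
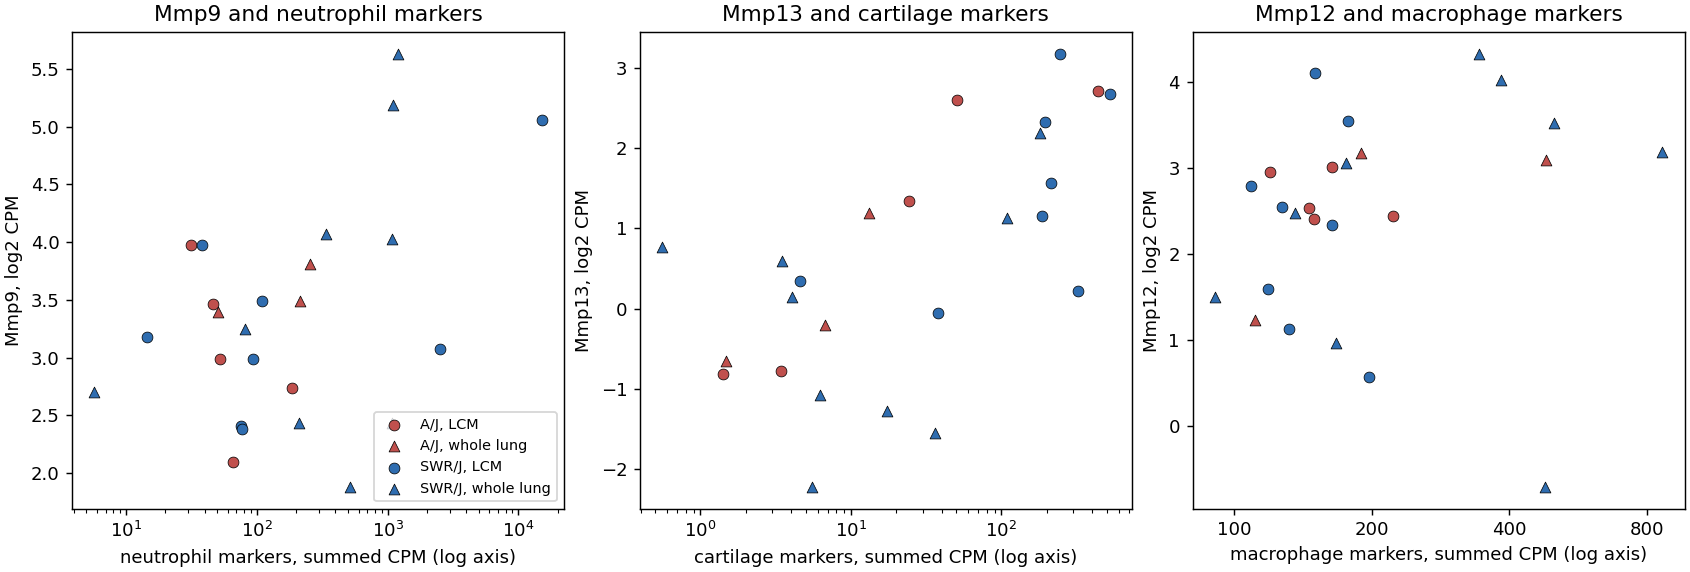
*Mmp9*, *Mmp13* and *Mmp12* (log2 CPM, vertical axes) against the summed CPM of neutrophil, cartilage and macrophage markers (log horizontal axes) in 25 samples, colored by strain and shaped by sample type. The highest *Mmp13* value (3.17) is at 244 CPM of cartilage markers, and the highest *Mmp9* values (5.06 to 5.63) are at 1096 to 15070 CPM of neutrophil markers.

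To compare the classes at like RNA quality, strain and sample type, edgeR was fitted to all 15630 genes that passed the filter on low values, with sample type, strain and median TIN in the model. Of the 10 genes, 9 passed and *Mmp10* did not. In high-grade against normal samples the fitted log2 fold change (± SE) was 2.92 ± 0.78 for *Timp1* and 2.02 ± 0.57 for *Mmp3*. It was 1.22 ± 0.57 for *Mmp12* and 0.82 ± 0.33 for *Timp3*. Smaller values were those of *Mmp14* (0.70 ± 0.36), *Mmp9* (0.53 ± 0.57), *Mmp2* (0.48 ± 0.32), *Timp2* (0.16 ± 0.24) and *Mmp13* (0.01 ± 0.90). Each SE was worked back from the fitted value and its test statistic in edgeR. The median over the 9 genes was 0.70, and over all 15630 genes -0.01. Because the genes were chosen with their levels by grade, sample type and strain known, the fitted values of this and the following contrasts describe them and carry no call.

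In A/J mice alone the *Mmp9* value was -1.03 and in LCM samples alone -1.32, against 1.74 in SWR/J mice and 1.958 in whole lung samples. The *Mmp13* value was -2.40 in A/J mice alone. The *Timp1* value was 1.92 ± 1.16 in LCM samples alone and 4.11 ± 1.07 in A/J mice alone.

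In mild dysplasia against normal, a comparison with the same normal samples, *Mmp3* (2.13 ± 0.72), *Timp3* (1.97 ± 0.45) and *Timp1* (1.87 ± 0.83) had the largest fitted values. *Mmp14* (1.30 ± 0.44) and *Mmp2* (1.29 ± 0.45) followed, then *Timp2* (0.85 ± 0.33), *Mmp13* (0.59 ± 1.10), *Mmp9* (0.23 ± 0.68) and *Mmp12* (0.11 ± 0.68). The median of the 9 was 1.29, against -0.02 over all genes. The *Timp3* value ran from 1.83 to 2.24 over the 25 fits without 1 sample. At an adjusted p of 0.05, 12.4% of all genes tested were called in this contrast, 5.21% higher and 7.24% lower. All 5 fibroblast markers had fitted values above 0 in mild dysplasia and 3 of the 5 were past this threshold, and their sum was 354 to 1000 CPM in normal samples, 649 to 2460 CPM in mild dysplasia and 348 to 1680 CPM in high-grade samples. Their part in the values of *Timp3*, *Mmp2* and *Mmp14* was not tested. The 3 T cell markers, 58.9 to 1520 CPM in normal and 6.15 to 75.2 CPM in mild samples, were all lower in mild dysplasia (3 of 3 past the threshold). Fitted values were also above 0 for all alveolar epithelial (median 1.952), endothelial (1.485) and airway epithelial markers (0.759). The same held for all cartilage (1.042) and all tested neutrophil markers (0.883), and for 3 of 5 macrophage and 2 of 4 muscle markers. Of these other markers 0 were past the threshold, and their part was not tested.

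In high-grade against mild samples, the fitted values were -1.15 ± 0.42 for *Timp3*, -0.81 ± 0.44 for *Mmp2*, 1.05 ± 0.92 for *Timp1* and 1.11 ± 0.73 for *Mmp12*. *Timp2* (-0.69 ± 0.32), *Mmp14* (-0.60 ± 0.43), *Mmp13* (-0.57 ± 1.26) and *Mmp3* (-0.11 ± 0.77) were below 0 and *Mmp9* (0.30 ± 0.68) above it.

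**Figure D3:**
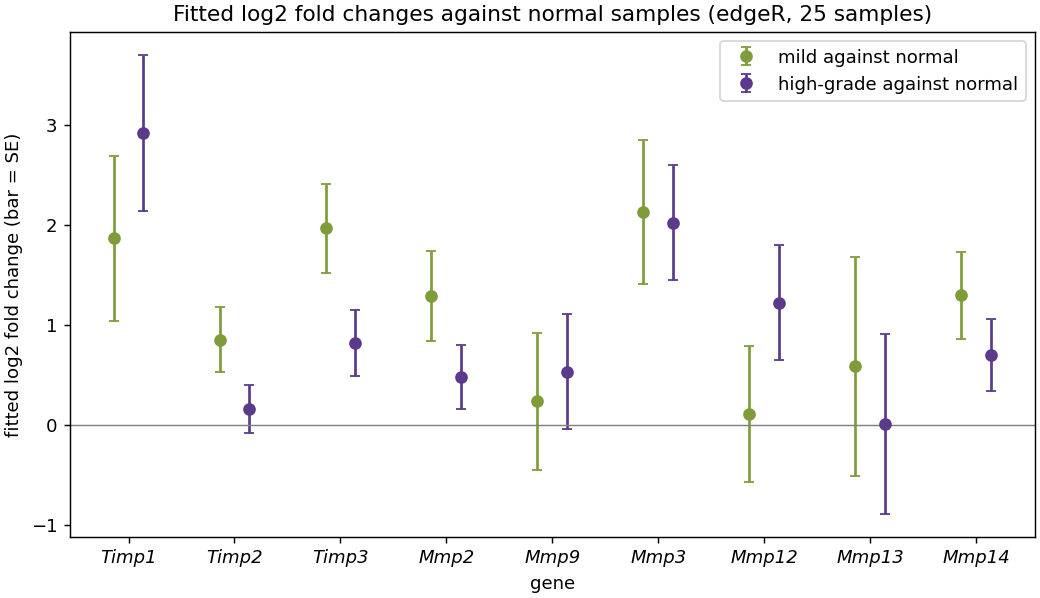
Fitted log2 fold changes (points, vertical axis) with SE (bars) of 9 genes (horizontal axis) in mild and in high-grade samples against the same normal samples. *Timp1* has the largest value in high-grade samples (2.92) and *Mmp3* in mild dysplasia (2.13), and all points lie above 0.

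When the 5 grades were numbered in order of severity, 0 for normal to 4 for CIS/SCC, the fitted slope of *Timp1* was 1.13 ± 0.21 log2 units per step, that of *Mmp3* 0.79 ± 0.19 and that of *Mmp14* 0.33 ± 0.13. The other 6 genes had slopes between -0.28 ± 0.34 (*Mmp13*) and 0.30 ± 0.23 (*Mmp12*). The *Timp1* slope was 0.87 ± 0.24 in LCM samples alone, 1.37 ± 0.32 in whole lung samples alone, 1.16 ± 0.44 in SWR/J and 1.11 ± 0.17 in A/J mice. It stayed between 1.06 and 1.22 over the 25 fits without 1 sample. Without samples 42 and 72 it was 1.05 ± 0.22.

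Within sample types the difference of mean log2 CPM between high-grade and normal samples had the same sign for *Timp1* (1.87 in LCM, 3.14 in whole lung) and *Mmp3* (1.47 and 2.30). For *Mmp9* it was -0.49 in LCM and 1.49 in whole lung samples. The sign also differed for *Mmp14* (-0.217 and 0.984), *Mmp13* (-0.139 and 0.222) and *Timp2* (-0.022 and 0.528). It was the same for *Timp3*, *Mmp2*, *Mmp12* and *Mmp10*. Between mild and normal samples the sign differed for *Mmp12* (-1.184 in LCM, 2.052 in whole lung), *Mmp9* (-0.247 and 1.057) and *Mmp13* (-0.343 and 1.362). By strain, high-grade against normal *Mmp9* differed by -0.59 in A/J and by 1.30 in SWR/J, and *Timp2* by -0.089 and 0.53. The differences between those differences were not tested. The 3 samples with the highest *Mmp9* were all SWR/J.

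By sample type, the fitted value for LCM against whole lung was highest for *Mmp13* (1.67 ± 0.65) and *Mmp3* (1.52 ± 0.44), followed by *Mmp2* (0.79 ± 0.27). Next came *Timp1* (0.67 ± 0.55), and *Mmp9* (-0.40 ± 0.43), *Timp3* (-0.36 ± 0.28), *Mmp14* (-0.34 ± 0.29), *Timp2* (-0.17 ± 0.19) and *Mmp12* (-0.14 ± 0.43) were below 0. In log2 CPM, *Mmp3* ran from 1.30 to 6.90 (median 4.11) in the 13 LCM samples and from 0.36 to 5.17 (median 2.18) in the 12 whole lung samples, so the sample types overlapped.

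By strain, SWR/J against A/J gave -2.04 ± 0.69 for *Mmp3*, -1.67 ± 0.43 for *Timp3*, -1.40 ± 0.84 for *Timp1*, -0.90 ± 0.42 for *Mmp14*, -0.84 ± 0.42 for *Mmp2* and -0.58 ± 0.30 for *Timp2*. *Mmp12* (1.02 ± 0.65), *Mmp9* (0.18 ± 0.66) and *Mmp13* (-0.22 ± 0.98) completed the list. In log2 CPM, *Timp3* ran from 8.03 to 10.16 in A/J samples and from 6.29 to 9.02 in SWR/J samples.

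To set levels side by side between genes, CPM were divided by the kilobases of each gene's exons. This length joins every annotated exon of a gene (8144 bases for *Timp3*, 7237 for *Mmp12*) and is not that of 1 transcript. The order and the shares below depend on it, and no other length was tried. On this scale the order by median over all 25 samples was *Timp2* (51.9 CPM per kb), *Timp3* (42.7), *Mmp2* (41.7), *Timp1* (14.9), *Mmp14* (7.94), *Mmp3* (6.35), *Mmp9* (2.62), *Mmp12* (0.777), *Mmp13* (0.486) and *Mmp10* (0). The first 3 had overlapping ranges (23.98 to 77.7, 9.55 to 140 and 5.12 to 81.8), as did *Timp1* (2.58 to 231), *Mmp14* (2.73 to 30.8) and *Mmp3* (0.594 to 66.3). The ranges are over samples of unlike grade, and differences between these neighbors within samples were not tested. By median, *Timp1* was at rank 5 in normal samples, where its mean was 7.02 ± 5.02 CPM per kb, and at rank 4 in mild (19.5 ± 16.5) and high-grade samples (70.02 ± 79.3).

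The 3 TIMPs together made up most of the summed TIMP and MMP level in each class, 66.8% ± 6.2 in normal, 66.3% ± 10.2 in mild and 67.3% ± 6.7 in high-grade samples (SD), and the classes overlapped. Within the TIMP sum the share of *Timp1* was 3.03% to 21.7% (median 6.84%) in normal samples, 5.67% to 28.3% (10.7%) in mild dysplasia and 9.86% to 79.1% (21.7%) in high-grade samples. It was highest in severe dysplasia sample 42 (79.1%), the SCC (58.8%) and the carcinoma in situ (48.1%). Among the metalloproteinases *Mmp2* held the largest mean share in each class (59.7%, 63.3% and 57.0%). The share of *Mmp3* was 47.9% in sample 42 and 32.6% in the SCC, and 2.05% to 21.0% in normal samples.

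**Figure D4:**
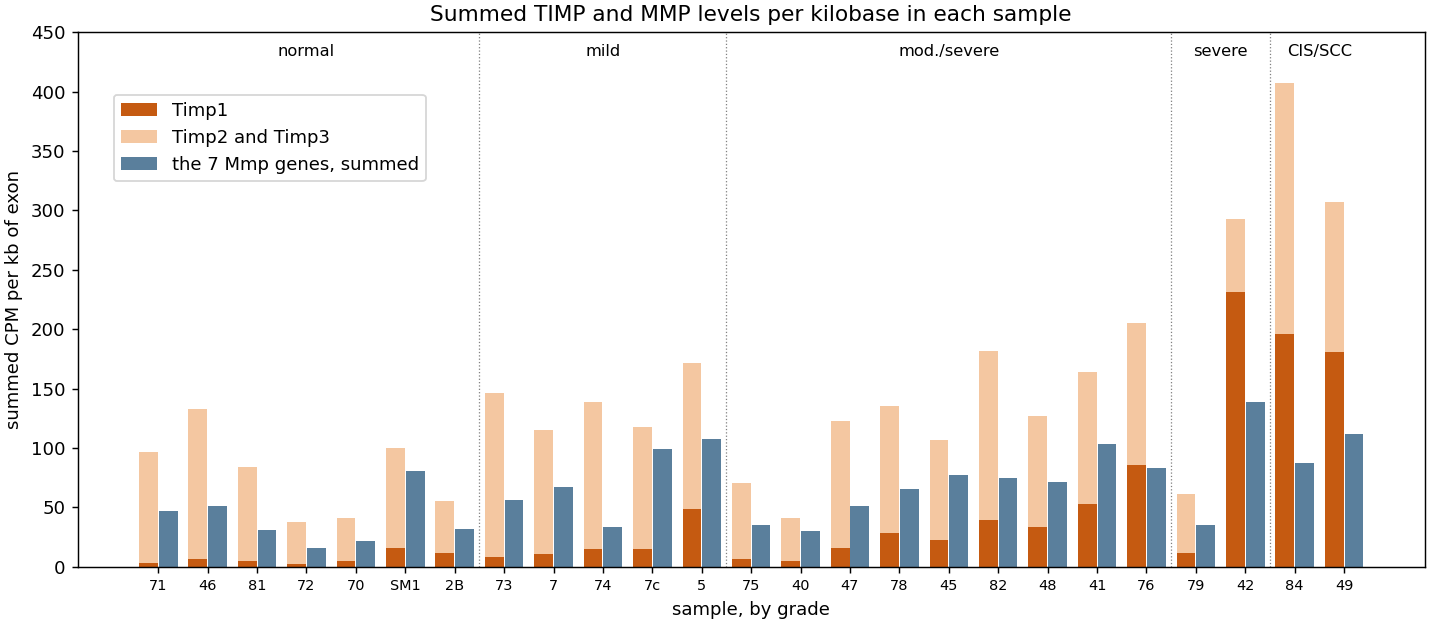
Summed CPM per kb of exon (vertical axis) of the 3 *Timp* genes, with *Timp1* in dark orange, and of the 7 *Mmp* genes, in each of 25 samples (horizontal axis) ordered by grade. The TIMP sum is highest in the carcinoma in situ (407), the SCC (307) and severe dysplasia sample 42 (293), and in these *Timp1* makes up 48.1% to 79.1% of it.

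Across the 25 samples, after regression of log2 CPM on median TIN, strain and sample type, *Timp1* and *Mmp3* had the highest correlation of the 36 pairs (Pearson r = 0.845), followed by *Timp2* and *Mmp2* (0.842) and *Timp1* and *Mmp14* (0.757). *Mmp9* was nearly uncorrelated with *Mmp2* (0.023). These values describe samples that differ in grade, dose and tissue composition, and they carry no test.

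**Figure D5:**
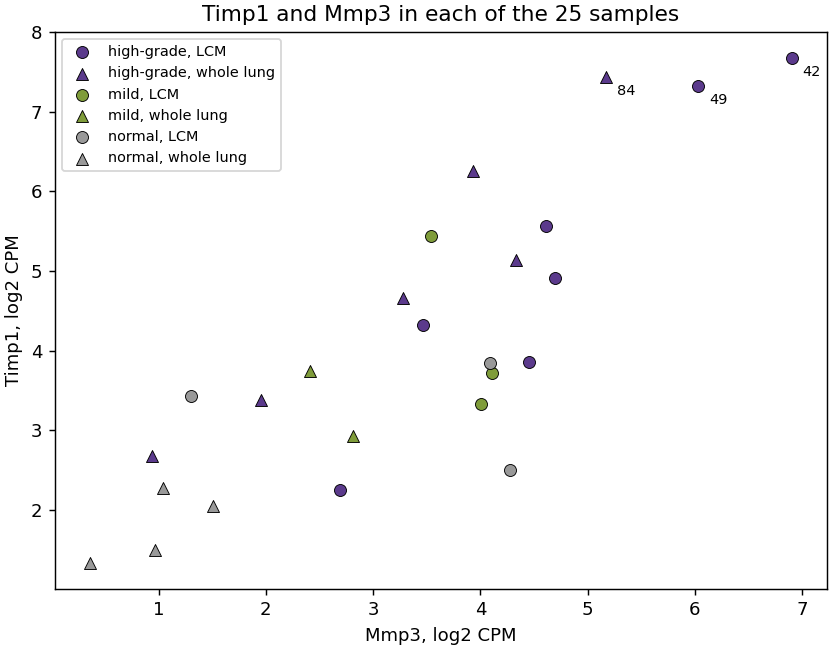
*Timp1* (vertical axis) against *Mmp3* (horizontal axis), both in log2 CPM, in 25 samples colored by class and shaped by sample type. Samples 42, 49 (SCC) and 84 (carcinoma in situ) have *Timp1* above 7 and *Mmp3* at 6.90, 6.03 and 5.17, and the whole lung normal samples lie at the lower left.

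Of the 14210 genes whose mean was 1 log2 CPM or more, those whose adjusted levels were most like *Timp1* over the 25 samples were *Slc39a14* (r = 0.921), which encodes a zinc and iron transporter, *Serpina3n* (0.895), a secreted serine protease inhibitor of the acute phase, *Gda* (0.855), a guanine deaminase, *Bdkrb1* (0.851), the inducible bradykinin receptor, and *Lgmn* (0.848), a lysosomal cysteine protease. The genes most like *Mmp2* were *Kirrel* (0.904), the collagen I gene *Col1a2* (0.897), the procollagen processing enhancer *Pcolce* (0.892), the secreted Wnt regulator *Dkk3* (0.892) and the Wnt receptor *Fzd1* (0.892). For *Mmp12* the values were lower: *Gm447* (0.725), the innate receptor *Tlr2* (0.688), the anion exchanger *Slc26a4* (0.686), the chemokine *Ccl17* (0.684) and the small nucleolar RNA *Snord123* (0.677). Without the regression these *Mmp12* values ran from 0.418 to 0.645. All genes named here were picked as the highest of 14210 correlations over 25 samples, and they carry no test.

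The other 48 genes of matrix proteolysis comprised 16 further metalloproteinases, 2 further inhibitors, 7 genes of the plasminogen system, 4 activators or partners, 9 ADAM and 10 ADAMTS proteases, and 38 passed the filter. Because this list was drawn up with earlier results of these data known, the p-values below are not independent of that choice. In high-grade against normal samples 0 of 38 passed an adjusted p of 0.05 in the quasi-likelihood test of edgeR, as did 0.0192% of all genes tested. At unadjusted p under 0.05 there were 13 of 38, all higher, against 9.14% of all genes, and DESeq2, an alternative count test, called 5, against 0.659% of the genes to which it gave an adjusted p. In this contrast 30 of 38 fitted values were above 0, with a median of 0.45, against 48.7% of all genes and a median of -0.01. By group, 4 of 6 plasminogen genes, 3 of 9 metalloproteinases, 2 of 4 activators or partners, 2 of 9 ADAM and 2 of 8 ADAMTS genes were at unadjusted p under 0.05. The difference between these groups, and between them and all genes, was not tested.

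In mild dysplasia against normal, 9 of 38 genes passed the test, 8 higher and 1 lower, by edgeR with Benjamini-Hochberg adjustment over all genes, of which 5.21% were called higher and 7.24% lower. DESeq2 called 14 of 38, against 23.2% of all genes. *Adam8*, a membrane protease of leukocytes and activated epithelium, rose by 2.12 ± 0.52 on the log2 scale (adjusted p = 0.0216 by edgeR) and *Adam9*, a widely expressed membrane protease, by 2.10 ± 0.48 (adjusted p = 0.0191 by edgeR). *Adam9* was at 6.44 to 6.87 log2 CPM in mild samples and at 3.77 to 6.32 in normal ones, so the ranges lay close together. The mild samples were all SWR/J, while the normal ones came from both strains. *Mmp25*, a membrane-bound metalloproteinase of leukocytes, fell (-2.66 ± 0.79, adjusted p = 0.0351 by edgeR). It was at 0.49 to 2.01 log2 CPM in normal and -2.22 to 0.97 in mild samples, where -2.22 is the value without reads, so these levels rest on few counts. By group, 2 of 6 plasminogen genes and 2 of 9 ADAM genes rose, as did 3 of 8 ADAMTS genes. Of 9 metalloproteinases 1 rose and 1 fell, and none of the 4 activators or partners and of the 2 other inhibitors, *Timp4* and *Reck*, passed the test. These groups are small, and their difference from the 5.21% of all genes called higher was not tested. With LCM samples alone or whole lung samples alone 0 of 38 passed, and without samples 42 and 72 it was 4. *Mmp25* was no longer past the threshold without sample 2B, 5, 7, 72, 74 or 7c. Nor was it past the threshold in SWR/J mice alone, without both 7c and SM1 or with no gene filter. The same held without strain and sample type in the model and with all 40 samples. *Adam8* and *Adam9* stayed past the threshold in all 25 fits without 1 sample. In whole lung samples alone the *Adam8* value was 0.24 ± 0.66 and that of *Adam9* 2.03 ± 0.86. Neither gene was past the threshold there, in LCM samples alone, without strain and sample type in the model or with all 40 samples, nor was *Adam8* in SWR/J mice alone. In these mild samples the markers of fibroblasts, T cells and other cell types moved too, with the values given above, and their part was not tested.

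In high-grade against mild samples 0 of 38 passed, against 0.326% of all genes by edgeR. At unadjusted p under 0.05 there were 9 of 38, against 22.5% of all genes, and DESeq2 called 0 of 38, against 8.68%. By strain 0 of 38 passed, against 0.992% of all genes, with 13 of 38 at unadjusted p under 0.05, against 17.5%, and 5 of 38 by DESeq2, against 6.11%. In LCM against whole lung samples 5 of 38 passed by edgeR, a share close to the 14.6% of all genes, and 8 of 38 by DESeq2, against 21.4%. The genes named next are single genes and no result about the list. *Adam28*, a lymphocyte and epithelial protease, was higher in LCM (1.48 ± 0.47, adjusted p = 0.0389 by edgeR), as was *Adam8* (1.27 ± 0.35, adjusted p = 0.0201 by edgeR). *Adam19* (-1.12 ± 0.26, adjusted p = 0.0088) and *Furin*, the convertase that cleaves many proprotein precursors (-1.03 ± 0.24, adjusted p = 0.00841), were lower by edgeR. The *Adam28* value was -1.53 ± 1.38 in A/J mice alone, and *Adam28* lost its call in 12 of the 25 fits without 1 sample, *Adam8* without sample 41.

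With the rank of grade 1 of 38 genes passed, against 0.262% of all genes, and 7 of 38 by DESeq2, against 3.49%. *Lcn2*, the lipocalin of neutrophil granules and inflamed epithelium, rose by 1.30 ± 0.25 log2 units per step (adjusted p = 0.027 by edgeR). Its level was 1.95 to 7.74 log2 CPM in normal samples (median 5.62), 6.90 to 9.39 in mild samples (7.35) and 5.27 to 11.97 in high-grade samples (7.94), highest in the SCC at 11.97 and next in sample 42 at 10.60. Neutrophil markers summed to 66.1 CPM in the SCC and 15070 CPM in sample 42, and their part in the slope was not tested. The call was lost in either sample type or strain alone and without sample 42, 46, 49, 81 or 84, with a slope of 0.99 without sample 49.

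The 15 samples that did not pass quality control were not used in choosing the genes and give a separate, shallow reading of *Timp1*. Their expected counts summed to 17051 to 1965373. In the 10 high-grade ones the mean was 3.87 ± 2.37 (SD) and in the 3 normal ones 2.62 ± 1.22 log2 CPM, a difference of 1.25 (exact permutation test, two-sided, p = 0.42, where 0.00699 is the smallest p this design allows). Of the high-grade samples, 7 of 10 were above the normal mean, and these were the ones with any *Timp1* read. In sample 20 a count of 1 was enough (2.948), so this share does not describe the level. The 3 normal samples were all SWR/J LCM samples. Against them the 6 high-grade SWR/J LCM samples differed by 1.448 (exact permutation test, two-sided, p = 0.524, smallest possible 0.0238). *Timp1* had 583 counts in severe dysplasia sample 25, also an LCM sample, and 0 to 18 in the other 9 high-grade samples. In 5 of the 15 the count was 0, in 2 normal samples and in 3 with moderate to severe dysplasia, and 3 counts would be 2.64 to 176 CPM in those. On this scale a sample without *Timp1* reads is at 1.92. Sample 25 also had 687 CPM of *Mmp3* and 9355 CPM of summed neutrophil markers.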

How the data were processed

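RNA from laser-capture or whole lung tissue was sequenced as single-end reads of 50 bases from an unstranded library, and 25 of 40 samples passed quality control. Per the labels and the study's methods, the authors trimmed reads with Trimmomatic, aligned them to mm9 with STAR and estimated counts per Ensembl gene with RSEM. The deposited values are these expected counts (88.8% are whole numbers), with no normalization, and fractions come from reads shared between genes. Samples with few uniquely aligned reads did not pass.

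Here, counts were rounded and tested with edgeR 4.0.16 (robust quasi-likelihood, TMM, Benjamini-Hochberg over 15630 genes, threshold 0.05) in R 4.3.3, checked on simulated data. Genes were kept where the interquartile range of log2 CPM was above 0 and its sum above 1. DESeq2 1.42.0 was the alternative test. Exact permutation used scipy 1.17.1. Expected counts summed to 2667387 to 16534727 per sample, which limits genes of a few counts such as *Mmp10*, and floors cover counting error only. The genes described, the pathway and marker lists and the tests were chosen with earlier results of these data known. Other pathway genes were named where past the threshold, up to 3 per direction by size of change. Of the genes this rule names, 1 is not reported here. Replicate numbers do not pair samples.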

Additional observations from a re-analysis of the deposited data

Results flagged for a closer look

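In mild dysplasia, *Mmp10* was at -1.351 log2 CPM in sample 7, which held about 1 count, while the other 4 samples were at -2.219 (no reads). In moderate to severe dysplasia, sample 48 (A/J, LCM) was at -0.041, and the other samples of this grade ran from -2.219 to -1.848. Both values stood farther from the rest of their grade than Dixon's 95% limit allows. In mild dysplasia the other 4 samples were tied without reads, so a single read was enough to pass it. The limit was applied to 29 groups of samples, and for normally distributed values chance alone passes it in about 1 group in 20. That rate does not hold for *Mmp10*, which had no reads in 19 of 25 samples.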

How the results depend on the processing

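Counts past the threshold (adjusted p of 0.05) moved with the settings, while *Timp1* stayed above 0 in every fit of high-grade or mild against normal and of the rank of grade. For the 38 other pathway genes, DESeq2 gave 5 genes in high-grade against normal (edgeR 0), 14 in mild against normal (edgeR 9), 8 in LCM against whole lung (5), 5 by strain (0) and 7 by rank of grade (1). Without TIN in the model the counts were 1 in high-grade against normal, 4 in high-grade against mild (0), 8 by strain and 5 by rank. Without strain and sample type they were 0 in mild against normal and 6 by rank. Subsets gave 0 in mild against normal (LCM or whole lung alone), 0 in LCM against whole lung (SWR/J or A/J alone) and 0 by rank (each of these 4 subsets). With all 40 samples the counts were 0 in mild, 2 in LCM against whole lung and 2 by rank. Without samples 42 and 72, an alternative chosen after seeing the data as was A/J alone, they were 4 in mild and 0 by rank, and without 7c and SM1, or with no gene filter, 3 in LCM against whole lung.

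The *Timp1* value in high-grade against normal (2.92) was 1.915 in LCM alone and 4.109 in A/J alone, and that of *Adam28* in LCM against whole lung turned to -1.533 in A/J alone. The cause of these shifts was not tested.

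Leaving out 1 sample gave, for the pathway genes, 0 in high-grade against normal, 2 (2B, 5 or 7) to 15 (46) in mild, with 3 without 70, 72 or 74, 4 without 73 and 5 without 7c or 84, 0 to 3 (76) in high-grade against mild, 2 (41) to 6 (42) in LCM against whole lung, with 3 without 2B, 75, 76 or 7c, 0 to 1 (76) by strain, and 0 (42, 46, 49, 81 or 84) to 5 (40 or 79) by rank, with 4 without 71 and 2 without 75 or SM1. *Timp1* ran from 2.491 to 3.154 in high-grade against normal, from 1.476 to 2.365 in mild and from 1.062 to 1.223 per step of rank. The mild comparison could not be made in A/J mice, which had no mild sample. No paired analysis was possible because the labels tie no samples of different groups together. Depth limits *Mmp10*, whose difference between high-grade and normal means was 0.65 with a prior count of 2 and 1.51 with 0.25.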
